A study of Mus musculus with 18 samples.

Results

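The clustered protocadherins are the cell-surface adhesion genes that lie side by side on mouse chromosome 18 as the alpha, beta and gamma clusters. They were taken as every row of the striatal count table on chromosome 18 whose symbol begins with Pcdha, Pcdhb or Pcdhg followed by a member number or letter. This rule uses position and name, not expression, and it found 58 genes, with 14 in the alpha, 22 in the beta and 22 in the gamma cluster, among 55421 rows. Striatal RNA of mice between 12 and 14 months of age was sequenced, with 1 library per mouse. The 5 WT mice carried neither alteration, the 5 zQ175 mice carried the Huntington's disease knock-in of an expanded CAG tract in 1 allele of the huntingtin gene, the 3 CK2a'(+/-) mice lacked 1 allele of Csnk2a2, the gene of the catalytic CK2 subunit alpha prime, and the 5 zQ175:CK2a'(+/-) mice carried both. The labels give C57BL/6 as the strain of all groups. By the study's methods the CK2a' line was obtained on a mixed 129/SvEv and C57BL/6J background and was then crossed for many generations, with C57BL/6J given as the background of the mice used. Females and males were not balanced across groups. Both alterations are present in every cell of the mouse, so the groups do not model a change in 1 cell type. The study asked whether lowering CK2a' changes the transcription of the Huntington's disease striatum.

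Clustered protocadherins are single-pass membrane proteins of the cadherin superfamily that bind the same isoform on a facing cell. Most members of the alpha, beta and gamma clusters have a promoter of their own, and single neurons switch on a small, largely random set of these promoters with the help of CTCF and cohesin, while the C-type members at the ends of the alpha and gamma clusters are used more broadly. The resulting combination of isoforms lets a neuron tell its own branches from those of others and is known for its part in self-avoidance, in axon tiling and in the survival of interneurons. An alpha or gamma transcript joins 1 variable exon, which encodes the extracellular and membrane part, to constant exons shared by the whole cluster, whereas a beta transcript has no constant exon.

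The libraries held between 13612381 and 22702547 counts. Csnk2a2 lay between 14.7 and 19.9 CPM (counts scaled to the size of the library) in the 8 mice labelled as heterozygotes and between 29.4 and 37.5 CPM in the 10 others, as the labels require. The labelled tissue was borne out by the 10 markers of striatal projection neurons, all of which were detected in every mouse. Some libraries stood apart. WT replicates 4 and 5 had a summed projection neuron marker level of 2776 and 2717 CPM, against 4233 to 6483 CPM in the other WT mice, 4580 to 6495 CPM in CK2a'(+/-), 1477 to 2952 CPM in zQ175 and 2424 to 3459 CPM in zQ175:CK2a'(+/-). WT replicates 1 and 3, CK2a'(+/-) replicate 1 and zQ175:CK2a'(+/-) replicate 2 had 978 to 3091 CPM in 6 choroid plexus markers, mostly from the transthyretin gene Ttr, while the other 14 mice had at most 21.6 CPM. zQ175 replicate 5 had 437 CPM in 9 cortical neuron markers, against 51.0 to 246 CPM elsewhere. The counts and beta values of the group comparisons are also given without the libraries low in projection neuron or high in choroid plexus markers.

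The 58 members occupy 911.7 kb of chromosome 18, between bases 36930184 and 37841873 of GRCm38, and all 58 lie on the plus strand. The alpha cluster spans 36930184 to 37187661, the beta cluster 37264938 to 37524479 and the gamma cluster 37661793 to 37841873. In the GENCODE annotation every alpha member has 4 exons and every one shares the same 2860 exonic bases, the gamma members have 3 to 5 exons and share 2116 bases, and all 22 beta members are a single exon with no base common to the cluster. Reads in shared bases went uncounted, since 4 other rows between the first and last member that have no base of their own on their strand were at 0 in all mice. The counts of an alpha or gamma member are therefore almost entirely those of its own variable exon, and levels are compared between genes only as CPM per kb of exon bases that no other gene of the same strand shares. Those bases numbered 1570 to 4614 in the gamma and 2588 to 8695 in the beta members. In the alpha members they numbered 494 to 4606, the lowest being Pcdha4, whose variable exon is largely covered by another annotated gene, so that its level is uncertain. Pcdhga10 shares every exonic base with a gene on one strand or the other and still had a mean of 398 counts, as counting that used the strand would give. The annotation gives the symbol Pcdha11 to 2 rows. The row ENSMUSG00000007440 begins 117 bases from the RefSeq start of Pcdha10 and is called Pcdha10 here, and ENSMUSG00000102206 is called Pcdha11. Members within a cluster resemble each other closely, so values of single members also depend on how reads that match several of them were removed.

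The striatum of these mice used the gamma cluster most. Of the summed CPM of all members, 59.9% came from the gamma cluster, 32.1% from the beta cluster and 7.97% from the alpha cluster, averaged over the 18 mice. Per kb of unshared exon, the median member stood at 7.45 CPM per kb in the gamma, 2.83 in the beta and 1.47 in the alpha cluster.

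The C-type members led the alpha and gamma clusters, with 1 exception in each. Pcdhgc3, which is known to promote dendrite branching, had the highest level of all 58 members, at 18.2 ± 1.64 CPM per kb (SD, n = 18). Pcdhgc5 followed at 12.6 ± 2.03 CPM per kb, and the ranges of both genes, 15.1 to 21.6 and 8.93 to 16.1 CPM per kb, overlapped slightly. Pcdhac2, the isoform that tiles serotonergic axons, led the alpha cluster at 6.87 ± 0.936 CPM per kb, with no mouse below 5.20 CPM per kb, and supplied 31.2% of the CPM of that cluster. The exceptions were Pcdhgc4, the isoform known for the survival of cortical interneurons, which ranked 21 of the 22 gamma members at 3.32 ± 0.656 CPM per kb, and Pcdhac1, which ranked 5 of the 14 alpha members at 1.72 ± 0.379 CPM per kb. Pcdhac1 and Pcdhac2 together made up 33.2% to 47.4% of the alpha cluster in single mice, and Pcdhgc3, Pcdhgc4 and Pcdhgc5 made up 23.6% to 28.8% of the gamma cluster.

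The alternately chosen members also differed in level among themselves. In the gamma cluster, Pcdhga11 came next after the C-type genes at 11.1 ± 1.64 CPM per kb and Pcdhga1, the most upstream gamma member, was lowest at 2.93 ± 0.553 CPM per kb. In the beta cluster, Pcdhb20, Pcdhb17 and Pcdhb14 led with 5.06 ± 1.39, 4.13 ± 0.954 and 4.06 ± 0.759 CPM per kb, and neighbours in this order overlapped. Pcdhb4 stood at 1.03 ± 0.368 CPM per kb. Pcdhb1, the most upstream beta member, was far below the rest of its cluster at 0.146 ± 0.111 CPM per kb, with at most 23 counts in any mouse and none in 3 of 18 mice. In the alpha cluster, Pcdha12 and Pcdha9 followed Pcdhac2 at 2.80 ± 0.544 and 1.87 ± 0.463 CPM per kb, and Pcdha3 and Pcdha1 were lowest at 0.761 ± 0.244 and 0.531 ± 0.327 CPM per kb. The most upstream member of each cluster, Pcdha1, Pcdhb1 and Pcdhga1, thus had the lowest level in it.

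**Figure D1:**
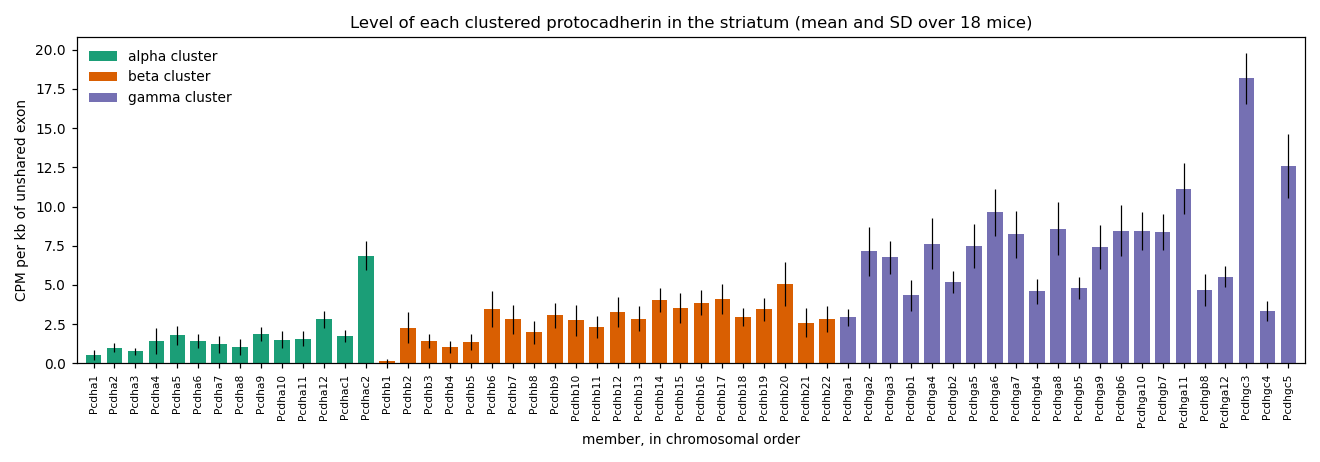
Mean level of each of the 58 members in CPM per kb of unshared exon, in chromosomal order, with the SD over 18 mice as bars and the alpha, beta and gamma clusters in different colours. Pcdhgc3 at 18.2 and Pcdhgc5 at 12.6 stand above all others, and Pcdhb1 is close to 0.

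Summed over its members, the beta cluster was higher on average in the mice with the knock-in, beyond the spread between mice in the CK2a' heterozygotes. Its total was 177, 246, 167, 282 and 299 CPM in the WT mice and 268, 323, 255, 340 and 275 CPM in the zQ175 mice. The 3 lowest WT mice lay below every zQ175 mouse, while WT replicates 4 and 5 lay among them, so the groups overlapped. The means were 234 ± 59.9 CPM in WT (SD, n = 5) and 292 ± 36.9 CPM in zQ175 (n = 5), a difference of 0.35 on the log2 scale that compares with a spread between mice of 0.30. In the mice with 1 allele of Csnk2a2, the total was 199, 224 and 219 CPM without the knock-in and 350, 303, 293, 307 and 312 CPM with it. Here the groups did not overlap, the means were 214 ± 13.3 CPM (n = 3) and 313 ± 22.1 CPM (n = 5), and the difference of 0.55 on the log2 scale was several times the spread of 0.10.

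The alpha total was also higher on average with the knock-in. It averaged 60.1 ± 9.74 CPM in WT, 74.3 ± 6.32 CPM in zQ175, 58.1 ± 3.86 CPM in CK2a'(+/-) and 71.0 ± 5.34 CPM in zQ175:CK2a'(+/-). The lowest zQ175:CK2a'(+/-) mouse, at 64.6 CPM, was above the highest CK2a'(+/-) mouse, at 60.8 CPM, while zQ175 and WT overlapped. The difference in the alpha total was 0.32 on the log2 scale between zQ175 and WT, against a spread of 0.18, and 0.29 between zQ175:CK2a'(+/-) and CK2a'(+/-), against a spread of 0.11. In the first of these comparisons the alpha and beta differences were of similar size, and without the 4 libraries high in choroid plexus markers the alpha difference was 0.26 and the beta difference 0.08. The gamma total averaged 488 ± 60.1, 494 ± 42.8, 494 ± 26.1 and 526 ± 36.4 CPM in the same order, and all groups overlapped. Its differences in these 2 comparisons, 0.02 and 0.09 on the log2 scale, did not exceed the spreads of 0.15 and 0.09. These totals carry no test of their own. In bulk tissue, fewer cells of a type and less RNA per cell cannot be told apart.

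**Figure D2:**
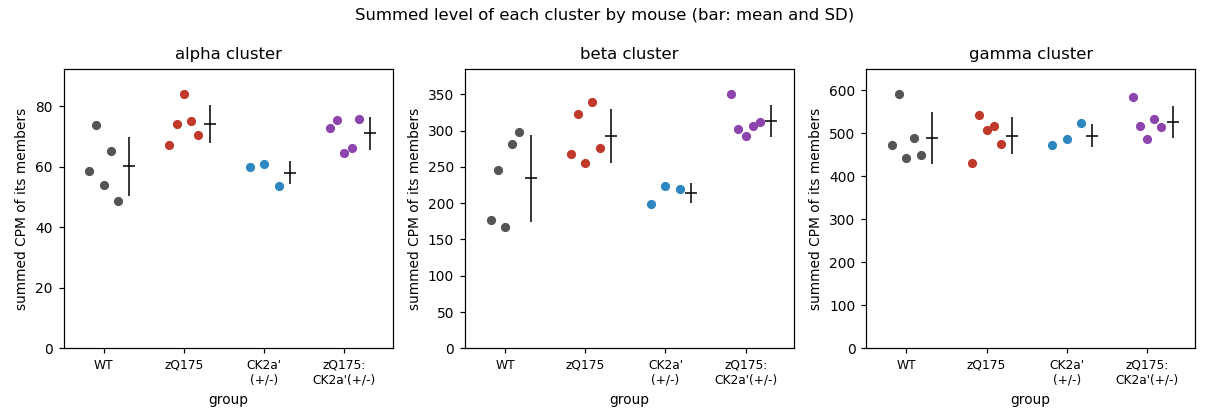
Summed CPM of the members of the alpha, beta and gamma clusters in each mouse (points) of the 4 groups, with the group mean and SD as a bar. The beta totals of zQ175:CK2a'(+/-), 293 to 350 CPM, lie above all 3 CK2a'(+/-) mice, 199 to 224 CPM, and the gamma totals of all groups overlap.

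Between zQ175 and WT, beta members leaned towards higher levels in zQ175, but no member passed. All 58 were tested among 20914 genes with edgeR's quasi-likelihood test, and the lowest Benjamini-Hochberg adjusted p of a member was 0.123, against a threshold (FDR) of 0.1 that 1.1% of all genes passed. At an unadjusted p under 0.05, 14 members were higher and 0 lower, where 6.79% of all genes were higher and 7.1% lower. The log2 fold change was above 0 for 19 of 22 beta, 11 of 14 alpha and 13 of 22 gamma members, and for 50.6% of all genes. Its median was 0.33 in the beta, 0.30 in the alpha and 0.06 in the gamma cluster. DESeq2 passed 7 members, 5 beta and 2 alpha, all higher, where it passed 5.26% of the genes to which it gave an adjusted p.

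The 3 members with the lowest p in this comparison were Pcdha11, Pcdhb17 and Pcdhb4. Pcdha11, an alternately chosen alpha isoform, was at 6.98, 8.04, 5.17, 3.51 and 3.48 CPM in WT and at 9.56, 11.4, 7.13, 9.83 and 7.80 CPM in zQ175. WT replicate 2 was above the 2 lowest zQ175 mice, and the log2 fold change was 0.75 ± 0.22 (SE) with an edgeR adjusted p of 0.123. Pcdhb17, a beta isoform, was at 14.4, 16.1, 11.5, 19.6 and 17.5 CPM in WT and at 21.7, 23.2, 19.4, 20.4 and 27.1 CPM in zQ175. Only WT replicate 4 reached the lowest zQ175 mouse, and the log2 fold change was 0.50 ± 0.14 with an edgeR adjusted p of 0.124. Pcdhb4, another beta isoform, was at 2.12 to 3.24 CPM in WT and 3.19 to 6.92 CPM in zQ175, with a log2 fold change of 0.80 ± 0.24 and an edgeR adjusted p of 0.141. Of all 58 members, 1 did not overlap between the groups, where 2.44% of all genes did not. It was the alpha isoform Pcdha9, at 4.88, 3.52, 3.20, 5.20 and 3.43 CPM in WT and 5.44, 6.89, 5.29, 5.94 and 6.83 CPM in zQ175, with a log2 fold change of 0.58 ± 0.18 and an edgeR adjusted p of 0.146.

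None of the 5 C-type members showed such a difference. Pcdhgc3 was at 54.1, 66.0, 61.6, 60.4 and 58.4 CPM in WT and at 63.5, 57.5, 68.6, 63.4 and 56.8 CPM in zQ175, and its log2 fold change was 0.04 ± 0.09. That of Pcdhgc5 was -0.03 ± 0.14, that of Pcdhgc4 0.08 ± 0.18, that of Pcdhac1 -0.07 ± 0.21 and that of Pcdhac2 0.17 ± 0.11. The groups overlapped for each of the 5, with edgeR adjusted p-values of 0.531 to 0.941.

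The knock-in comparison on the CK2a'(+/-) background, zQ175:CK2a'(+/-) against CK2a'(+/-), shares no mouse with the one above. Here 2 members rose, the beta isoforms Pcdhb3 and Pcdhb20, and none fell, where 0.593% of all genes passed. Pcdhb3 was at 2.93, 3.81 and 3.27 CPM in CK2a'(+/-) and at 6.75, 5.31, 7.35, 6.63 and 8.41 CPM in zQ175:CK2a'(+/-). All 5 mice with the knock-in were above all 3 without it, and the log2 fold change was 1.04 ± 0.23 with an edgeR adjusted p of 0.0733. Pcdhb20 was at 12.3, 14.8 and 13.2 CPM in CK2a'(+/-) and at 21.6, 22.0, 27.7, 27.0 and 18 CPM in zQ175:CK2a'(+/-). Its groups did not overlap either, and the log2 fold change was 0.79 ± 0.19 with an edgeR adjusted p of 0.0966. Both calls lay close to the threshold. With the Xist level, a measure of sex, as a covariate, the edgeR adjusted p became 0.128 for Pcdhb3 and 0.217 for Pcdhb20, and the log2 fold changes 1.03 and 0.63.

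The rest of the beta cluster lay on the same side. Of its 22 members, 21 had a log2 fold change above 0, as did 13 of 14 alpha, 16 of 22 gamma and 50.7% of all genes, and the median was 0.59 in the beta, 0.32 in the alpha and 0.14 in the gamma cluster. At an unadjusted p under 0.05, 14 beta and 4 gamma members were higher and no member was lower, where 4.33% of all genes were higher and 4.86% lower. The groups did not overlap for 12 members, all higher in zQ175:CK2a'(+/-), where 3.86% of all genes were higher without overlap. These were Pcdhb2, Pcdhb3, Pcdhb5, Pcdhb14, Pcdhb17 to Pcdhb22, Pcdhga2 and Pcdhga4. Pcdhb14, which supplies 13.1% of the beta CPM, was at 27.0, 26.2 and 32.4 CPM in CK2a'(+/-) and at 42.0, 43.1, 36.3, 43.6 and 39.2 CPM in zQ175:CK2a'(+/-), and its log2 fold change of 0.52 ± 0.16 did not pass, with an edgeR adjusted p of 0.229. The 1 beta member below 0 was Pcdhb1, at -1.56 ± 0.96 on the log2 scale and under 1 CPM in each of these 8 mice. DESeq2 passed 5 members, all higher, where it passed 1.47% of genes. The C-type members again did not pass, with log2 fold changes of -0.10 ± 0.10 for Pcdhgc3, -0.34 ± 0.20 for Pcdhgc4, 0.21 ± 0.16 for Pcdhgc5, 0.30 ± 0.24 for Pcdhac1 and 0.27 ± 0.13 for Pcdhac2.

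**Figure D3:**
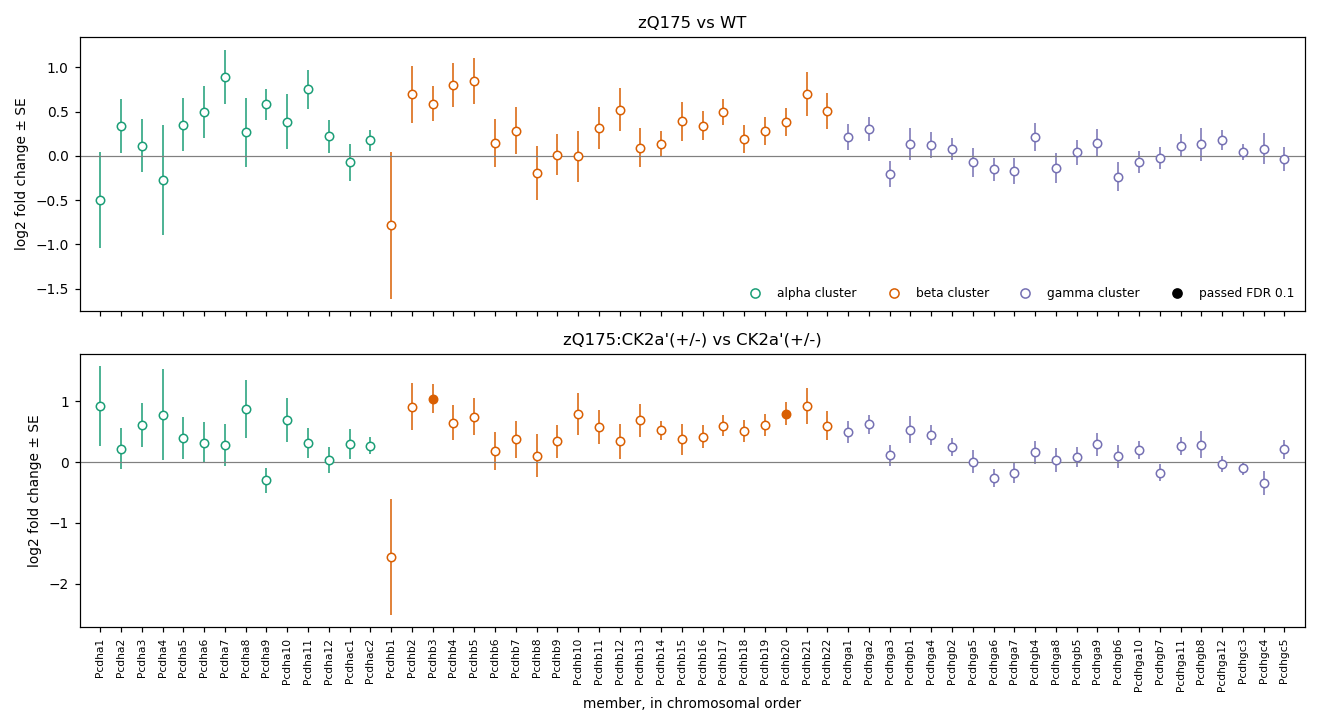
Log2 fold change and SE of each member in chromosomal order for zQ175 against WT (top) and zQ175:CK2a'(+/-) against CK2a'(+/-) (bottom), coloured by cluster, with filled points for members that passed FDR 0.1. Of the 22 beta members, 19 are above 0 in the top and 21 in the bottom plot, where Pcdhb3 and Pcdhb20 are filled, while gamma members scatter around 0 in the top plot.

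Side by side, 19 of 22 beta members were higher with the knock-in in both comparisons, 1 was lower in both and 2 went opposite ways. The corresponding counts were 10, 0 and 4 of 14 alpha members and 10, 3 and 9 of 22 gamma members. The share of all genes that were higher in both comparisons is not given here. Members of a cluster were measured in the same mice and are not independent of each other. When both groups with the knock-in were set against both groups without it, a comparison added after the values had been seen, 11 members rose and none fell, where 4.9% of all genes passed and 2.11% passed as higher. They were the beta isoforms Pcdhb2, Pcdhb3, Pcdhb4, Pcdhb5, Pcdhb17, Pcdhb19, Pcdhb20, Pcdhb21 and Pcdhb22, the alpha isoform Pcdha11 and the gamma isoform Pcdhga2. Pcdha11 did not pass under either removal of libraries given below, and Pcdhga2 did not pass without those high in choroid plexus markers. Pcdhb3 had the lowest edgeR adjusted p of these, 0.00752, with a log2 fold change of 0.82 ± 0.15. The median log2 fold change was 0.41 over the 22 beta, 0.32 over the 14 alpha and 0.07 over the 22 gamma members.

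The passing beta members fell into stretches of neighbours, but this depended on the mice kept. Pcdhb2 to Pcdhb5 are neighbours at the upstream end and Pcdhb17 and Pcdhb19 to Pcdhb22 lie at the downstream end, and none of Pcdhb6 to Pcdhb16 passed, although Pcdhb14 and Pcdhb16 missed the threshold narrowly with edgeR adjusted p-values of 0.104 and 0.114. Without WT replicates 4 and 5, 16 of the 22 beta members passed, where 6.6% of all genes did, so members in the middle of the cluster passed there too. Without the 4 libraries high in choroid plexus markers, 3 of the 22 passed, where 0.591% of all genes did. Pcdhga2, the gamma member that passed, is the next gene but one after Pcdhb22 among the members. This grouping was noticed after the values had been seen and was not tested. Pcdhb21 illustrates the downstream end, at 4.24, 7.32, 3.40, 10.3 and 14.0 CPM in WT, 13.6, 12.6, 12.8, 14.2 and 11 CPM in zQ175, 8.13, 6.61 and 8.28 CPM in CK2a'(+/-) and 15.1, 12.9, 14.4, 15.4 and 14.4 CPM in zQ175:CK2a'(+/-). WT replicate 5 alone reached the levels of the mice with the knock-in.

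**Figure D4:**
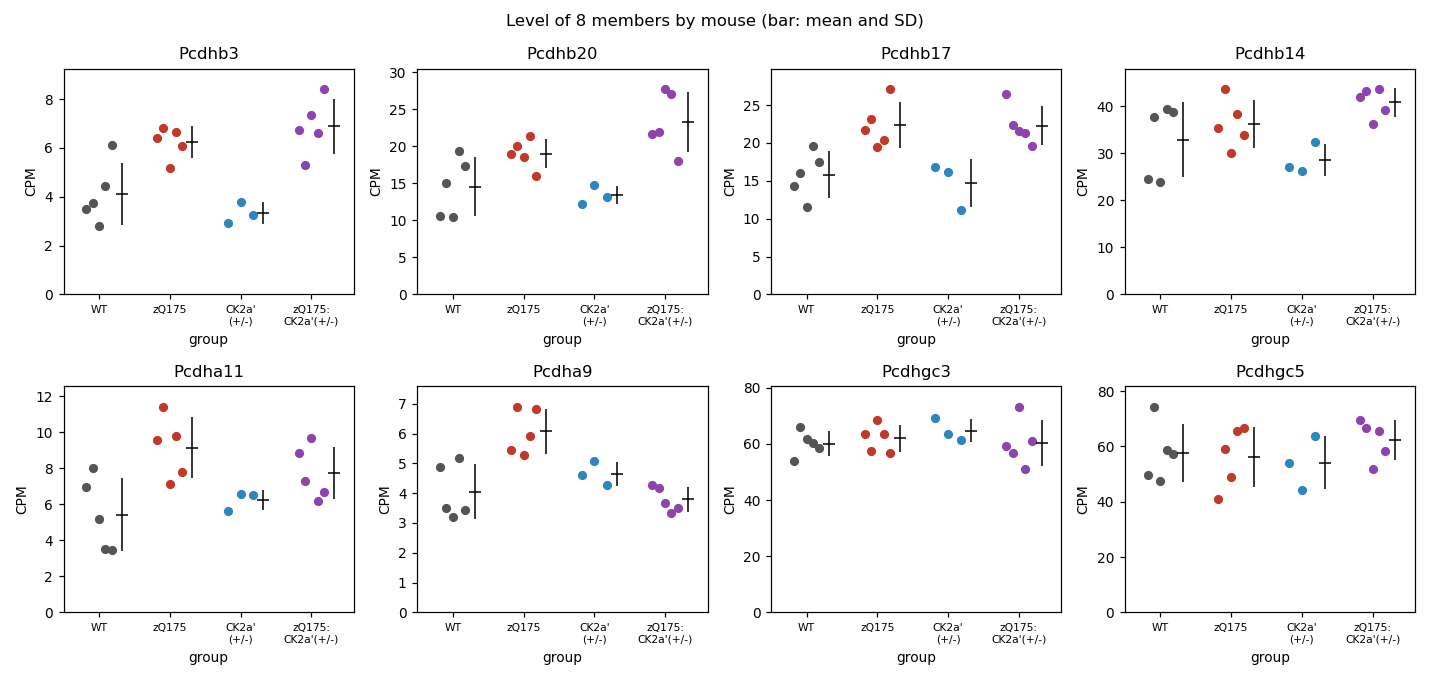
CPM of Pcdhb3, Pcdhb20, Pcdhb17, Pcdhb14, Pcdha11, Pcdha9, Pcdhgc3 and Pcdhgc5 in each mouse (points), with the group mean and SD as a bar. Pcdhb3 and Pcdhb20 are higher in all 5 zQ175:CK2a'(+/-) than in all 3 CK2a'(+/-) mice, Pcdha9 is highest in zQ175, at 5.29 to 6.89 CPM, and Pcdhgc3 is at 51.0 to 73.2 CPM throughout.

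Lowering CK2a' was not accompanied by a change of any member that passed. Between zQ175 and zQ175:CK2a'(+/-), which differ in the Csnk2a2 allele, 0 members passed by edgeR and 0 by DESeq2, where 0.0143% and 0.145% of genes passed, and 3 had an unadjusted p under 0.05, as did 6.27% of all genes. The lowest p belonged to Pcdha9, which was at 4.28, 4.16, 3.67, 3.34 and 3.49 CPM in zQ175:CK2a'(+/-), below all 5 zQ175 mice given above. Its log2 fold change, zQ175 over zQ175:CK2a'(+/-), was 0.68 ± 0.18 with an edgeR adjusted p of 0.438, and it was the 1 member whose groups did not overlap, where 1.14% of all genes did not. Pcdhga4 and Pcdhga10, both gamma isoforms, followed with -0.40 ± 0.14 and -0.28 ± 0.12 and edgeR adjusted p-values of 0.637 and 0.758. The median log2 fold change was -0.02, -0.07 and -0.09 in the alpha, beta and gamma clusters.

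Without the knock-in the Csnk2a2 allele gave no called member either. Between CK2a'(+/-) and WT, 0 members passed by edgeR and 0 by DESeq2, where 0.0143% and 0.0293% of genes passed, and 2 had an unadjusted p under 0.05, as did 4.48% of all genes. The alpha isoform Pcdha7 was at 2.22, 3.28 and 2.94 CPM in CK2a'(+/-) and at 1.20, 1.34, 1.23, 2.18 and 1.34 CPM in WT. It was higher without overlap, by 0.94 ± 0.35 on the log2 scale, with an edgeR adjusted p of 0.999. Pcdhga2 was at 11.9, 13.7 and 13.8 CPM in CK2a'(+/-) and 15.4 to 19.2 CPM in WT, lower without overlap, at -0.38 ± 0.16, where 3.2% of all genes did not overlap in either direction. Pcdha8, the third by p, was at -0.97 ± 0.48 and its groups overlapped.

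The interaction asks whether the knock-in effect differed between the 2 Csnk2a2 genotypes. It passed for 0 members by edgeR and 0 by DESeq2, where 0.00478% and 0.103% of genes passed, and 1 member, Pcdha9, had an unadjusted p under 0.05, as did 5.39% of all genes. Its interaction term was -0.88 ± 0.27 on the log2 scale with an edgeR adjusted p of 0.832, since it was higher with the knock-in in the mice with both Csnk2a2 alleles, at 0.58 ± 0.18, and at -0.30 ± 0.21 in the heterozygotes. Pcdhb14 and Pcdhb10 came next, with terms of 0.38 ± 0.21 and 0.79 ± 0.45 and the same edgeR adjusted p of 0.916. The term of Pcdhb10 varied with the mice kept, from 0.46 without CK2a'(+/-) replicate 1 to 1.08 without CK2a'(+/-) replicate 3, and was 0.27 without WT replicates 4 and 5. The difference between the beta results of both knock-in comparisons therefore did not pass for any member.

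The mice with both alterations were also set against WT, a comparison that shares its WT mice with that of zQ175. Here 0 members passed by edgeR, where 0.0143% of all genes did, and DESeq2 passed 6, all higher, where it passed 0.725% of genes. At an unadjusted p under 0.05, 16 members were higher and 0 lower, where 4.27% and 4.85% of all genes were. Pcdhb20 was at 10.6, 15, 10.4, 19.3 and 17.3 CPM in WT, so that WT replicate 4 overlapped with the zQ175:CK2a'(+/-) mice given above, and its log2 fold change was 0.68 ± 0.16 with an edgeR adjusted p of 0.204. Pcdha7 had a log2 fold change of 1.22 ± 0.31 and an edgeR adjusted p of 0.237. Pcdhb5 was at 1.91 to 4.54 CPM in WT and 4.87 to 8.70 CPM in zQ175:CK2a'(+/-), did not overlap, and had 0.99 ± 0.26 and an edgeR adjusted p of 0.258. It was 1 of 2 members without overlap, where 1.84% of all genes did not overlap. The median was 0.41 in the beta, 0.23 in the alpha and 0.12 in the gamma cluster.

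The beta values moved with the libraries that stood apart. WT replicates 4 and 5, low in projection neuron markers, had the highest beta totals of their group. With both left out, an alternative chosen after seeing the data, 9 members passed between zQ175 and WT, all of them beta and all higher, and the beta median was 0.63 in place of 0.33. Over all genes 2.5% passed in this fit, against 1.1% with all mice. With the 4 libraries high in choroid plexus markers left out, which removes the WT mice with the lowest beta totals, 0 members passed, where 0.00469% of all genes did, 14 of 22 beta members were above 0, their median was 0.10 and the difference in the beta total was 0.08 on the log2 scale. Which WT mice are kept thus decides the size of this difference. The alpha median between zQ175 and WT, 0.30 with all mice, was 0.19 without WT replicates 4 and 5 and 0.16 without the choroid libraries, and 11 of 14 alpha members were above 0 in both. Between zQ175:CK2a'(+/-) and WT, 8 members passed without WT replicates 4 and 5, 7 of them beta, where 1.05% of all genes passed against 0.0143% with all mice, and the beta median was 0.70 in place of 0.41. Without the choroid libraries 0 passed there, where 0.00938% of all genes did, the beta median was 0.18 and the difference in the beta total was 0.20 in place of 0.46. The difference in the beta total between CK2a'(+/-) and WT, -0.09 with all mice, was 0.14 and -0.31 under these removals and so changed sign, and 0 members passed under either, where 0.00485% and 0.00938% of all genes did. Between zQ175 and zQ175:CK2a'(+/-), 0 members passed under either removal, where 0.0145% and 0.00938% of all genes did, and the beta median was -0.08 and -0.11. For the interaction, 0 members and 0 of all genes passed under either removal, and the beta median of 0.22 became -0.10 without WT replicates 4 and 5 and 0.39 without the choroid libraries. In the heterozygotes, 6 members passed without WT replicates 4 and 5, which enter the fit through the shared spread, and 5 of them were beta, where 1.41% of all genes passed against 0.593% with all mice. In the same comparison, leaving out the libraries high in choroid plexus markers ended the calls of Pcdhb3 and Pcdhb20, with edgeR adjusted p-values of 0.177 and 0.195, while their log2 fold changes were 1.04 and 0.75 and 0.0657% of all genes passed. The beta median there was 0.53, 21 of 22 members stayed above 0 and the difference in the beta total was 0.51. For both groups with the knock-in against both without it, 17 members passed without WT replicates 4 and 5, 16 beta and 1 gamma, and 3 without the 4 choroid libraries, all of them beta, and the beta medians were 0.60 and 0.30. Over all genes 6.6% and 0.591% passed under these removals. The call of Pcdha11 was thus lost under both removals, with a lowest edgeR adjusted p among alpha members of 0.140 and 0.281, and that of Pcdhga2 without the choroid libraries, where the lowest among gamma members was 0.166. The alpha median was 0.34 without WT replicates 4 and 5 and 0.26 without the choroid libraries, against 0.32 with all mice. The gamma median was 0.06 and 0.02, against 0.07.

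The markers of other cells also moved with the knock-in. Between zQ175 and WT, 10 of 10 projection neuron markers had a log2 fold change under 0 and 3 of them fell, with a median of -0.67, and 6 of 6 oligodendrocyte markers were under 0 and 4 fell, with a median of -0.50 and a summed level of 5399 to 7459 CPM in WT and 3525 to 5302 CPM in zQ175. Of the 8 cortical neuron markers tested, 8 were above 0 and 1, Tbr1, rose, with a median of 1.44. The summed cortical level was 64.3 to 143 CPM in WT and 137 to 437 CPM in zQ175, and Neurod6, Slc30a3 and Emx1 were at 0 in at least 1 mouse. All 6 choroid plexus markers were under 0, with a median of -3.44, as the high libraries were WT, and none passed. Folr1, Kcnj13 and Aqp1 among them were at 0 in at least 1 mouse. Of the microglia markers 6 of 6 were under 0 and 1, C1qa, fell, with a median of -0.20. The 7 astrocyte markers were all under 0 with a median of -0.13, as were 3 of 4 oligodendrocyte precursor and 4 of 5 endothelial markers, and none of these passed. Between zQ175:CK2a'(+/-) and CK2a'(+/-), 10 of 10 projection neuron markers were under 0 and 2 fell, with a median of -0.79, whereas 4 of 8 cortical markers were above 0, with a median of 0.06. Of 6 oligodendrocyte markers 3 were under 0 there and 1, Mobp, fell, with a median of -0.12. The 6 choroid plexus markers were all above 0 with a median of 0.69, 5 of 6 microglia markers were above 0 with a median of 0.07, and 3 of 4 oligodendrocyte precursor markers were above 0 with a median of 0.11. Of the endothelial markers 3 of 5 were under 0 with a median of -0.34, as were 5 of 7 astrocyte markers with a median of -0.26, and no marker of these 5 lists passed. With the projection neuron marker level as a covariate, no beta member passed in either comparison. Pcdhb3 and Pcdhb20 had log2 fold changes of 0.78 and 0.69 in the heterozygotes, with edgeR adjusted p-values of 0.235 and 0.197. The 1 member that passed between zQ175 and WT was an alpha isoform, and the 3 that passed in the heterozygotes were gamma genes, where 0.593% and 1.32% of all genes passed. With this covariate 19 and 21 of 22 beta members were above 0, with medians of 0.28 and 0.51, while the gamma medians were 0.21 and 0.37 in place of 0.06 and 0.14, with 19 and 20 of 22 gamma members above 0. The projection neuron marker level was itself lower on average with the knock-in. In the heterozygotes its summed CPM did not overlap, at 2424 to 3459 with and 4580 to 6495 without the knock-in. The fit with this covariate cannot separate marker level from genotype there. The part of these cell markers in the beta values was not tested.

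**Figure D5:**
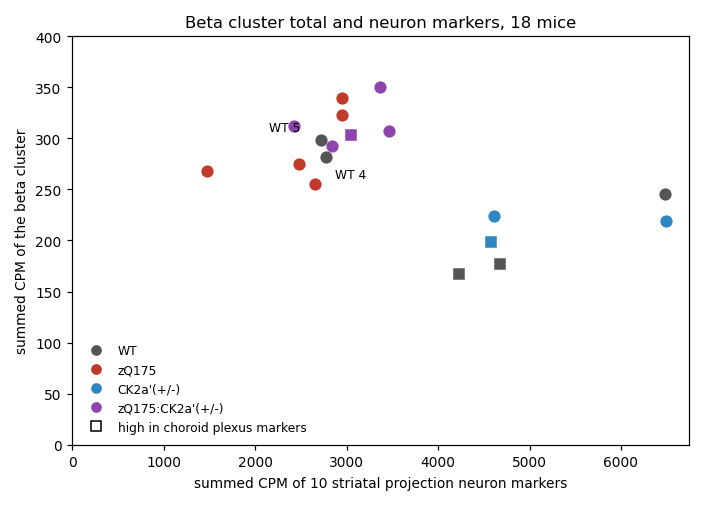
Summed CPM of the beta cluster (vertical axis) against summed CPM of 10 striatal projection neuron markers (horizontal axis) in the 18 mice, coloured by group, with squares for the 4 libraries high in choroid plexus markers. The 6 mice with the highest marker levels, from 4233 CPM upwards, have beta totals of 167 to 246 CPM, and the 12 others, WT replicates 4 and 5 included, have 255 to 350 CPM.

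Genes that act with the clusters were read from lists of related function. Of 16 regulators of the locus, among them Ctcf, the cohesin subunits Rad21, Smc1a and Smc3, and Smchd1, which silences clustered protocadherins, 0 passed in either knock-in comparison, and the median log2 fold changes were 0.14 and 0.05. Of 12 non-clustered protocadherins, which share the extracellular domains but lie elsewhere in the genome, 11 were tested. All 11 were above 0 between zQ175 and WT, with a median of 0.28 and none passing. Between zQ175:CK2a'(+/-) and CK2a'(+/-), 8 of 11 were above 0, with a median of 0.33, and Pcdh10 rose from 203 to 237 CPM to between 288 and 296 CPM, a log2 fold change of 0.42 ± 0.09 with an edgeR adjusted p of 0.0591. Of 22 cytoplasmic partners and processing enzymes, Brk1, a subunit of the WAVE complex that binds protocadherin tails, fell in zQ175 against WT by 0.50 on the log2 scale, with an edgeR adjusted p of 0.0707. Marcks, which binds actin and the plasma membrane, rose in the heterozygotes by 0.38 ± 0.09, with an edgeR adjusted p of 0.0759, and the other 21 members of that list did not pass there.

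In the fit of all 18 libraries, most beta members also varied more from mouse to mouse than other genes of their level. The biological coefficient of variation from edgeR lay above the trend for genes of the same abundance in 16 of 22 beta members, or 72.7%. The share was 28.6% of alpha members, 27.3% of gamma members and 30.1% of all genes tested. This estimate is 1 value per gene for all groups, and the spread of the beta total differed between groups. The SD of the beta total was 59.9 CPM in WT (mean 234) and 36.9 CPM in zQ175 (mean 292). It was 13.3 CPM in CK2a'(+/-) (mean 214) and 22.1 CPM in zQ175:CK2a'(+/-) (mean 313). Whether beta members varied more than other genes within each group was not tested. The beta members are single-exon genes, with medians of 0.33 between zQ175 and WT and 0.59 between zQ175:CK2a'(+/-) and CK2a'(+/-). The 4739 other single-exon genes tested had median log2 fold changes of 0.07 and 0.03 in these comparisons. They were not matched to the beta members in level or position, and a part of the exon structure was not tested. Of the 15 other genes tested between the first and last member, none passed in any comparison, and their medians were 0.16 and 0.32.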

How the data were processed

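Per the labels, total RNA of the striatum was made into stranded libraries (Takara Pico Mammalian V2) and sequenced in pairs. The authors used Trimmomatic for trimming and HISAT2 2.1.0 for alignment to GRCm38, removed duplicated mappings, unmapped reads and those under a mapping quality of 60, and deposited raw counts per gene from Subread 1.6.2, with gene length as a second kind of value. The strand setting is not given in the sources used here. The submitters' notes also name FastQC.

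The counts, 1 library per mouse, were tested with edgeR 4.0.16 (R 4.3.3), quasi-likelihood after TMM scaling, on the 20914 genes kept by filterByExpr, in 1 fit of all 18 libraries with the group as factor, at FDR 0.1. DESeq2 1.42.0 was run on all 55421 rows. CPM used TMM-scaled library sizes. SE is the absolute log2 fold change over the square root of F. Exon bases came from GENCODE M21. Named members were the C-type genes, those that passed in a comparison or else the 3 with the lowest p, and the 3 highest and 2 lowest per cluster. Other members named were chosen after their values were seen. The members and lists were chosen with earlier results of these data known. The test was checked on simulated data, with changes larger than most beta members had and a spread that most of them exceeded. That check does not measure how often differences of these members would be found. The precision of the counts is limited by 13612381 to 22702547 counts per library and 3 to 5 mice per group. Library numbers were not taken to pair mice. No sequence is printed.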

Additional observations from a re-analysis of the deposited data

Results flagged for a closer look

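Among 183 groups of 5 mice examined, covering the 3 cluster totals and all 58 members, 4 held a mouse far from the rest of its group, and chance alone flags about 1 in 20 groups. Pcdha7 was at 2.18 CPM in WT replicate 4, while the other WT mice were at 1.20 to 1.34 CPM. Pcdhb2 was at 3.57 CPM in zQ175 replicate 3, below the other zQ175 mice at 8.55 to 10.3 CPM. Pcdhb1 was at 1.15 CPM in WT replicate 1 and at 0.222 to 0.477 CPM in the other WT mice. Pcdhga12 was at 31.3 CPM in WT replicate 2 and at 20.5 to 23.1 CPM in the other WT mice. No member passed the interaction test of the knock-in with the Csnk2a2 genotype.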

How the results depend on the processing

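Differences in the cluster totals moved by less than the spread between mice in all 306 recomputations, of which 25 changed the sign of a difference, all in CK2a'(+/-) against WT, the interaction or the gamma total of zQ175 against WT. That spread is a wide measure, at 0.30 on the log2 scale for the beta total of zQ175 against WT. The loss of most of this difference without the choroid plexus libraries therefore also counted as smaller, and the measure does not show that the differences are stable. No named member changed direction in the comparison that named it. Numbers of passing members did change. Between zQ175 and WT, where none passed, 7 passed with DESeq2 (7 also with rows without counts left out), 2 without a filter on low counts, 9 without WT replicates 4 and 5, 1 with the projection neuron level as covariate and 11 with both knock-in groups pooled, and 0 to 3 when single mice were left out. Over all genes the calls of these fits moved too, from 230 to 855, 847, 451, 515, 124, 1024 and 0 to 587. Between zQ175:CK2a'(+/-) and WT the corresponding numbers were 6, 6, 2, 8 and 1, and 0 to 1, and over all genes 3 with all mice, then 123, 124, 85, 217 and 31, and 1 to 34. Between zQ175:CK2a'(+/-) and CK2a'(+/-), where 2 passed, DESeq2 gave 5 (6 with rows without counts left out), no filter 5, the groups compared alone 7, FDR 0.05 0, the Xist covariate 0, removal of the choroid plexus libraries 0, removal of WT replicates 4 and 5 6, the projection neuron covariate 3 and single mice left out 0 to 3. In this order the calls over all genes were 124, then 322, 327, 297, 461, 27, 75, 14, 291, 277 and 6 to 221. Pcdhb3 was lost without any CK2a'(+/-) mouse and without zQ175:CK2a'(+/-) replicates 1, 3, 4 or 5, and Pcdhb20 without any mouse of either group and without zQ175 replicates 2, 3 or 4, while their log2 fold changes stayed at 0.96 to 1.15 and 0.72 to 0.87. The cause was not tested. The replicate block gave 0 members and 12 genes there and changed no other number of passing members. Over all genes it lowered the calls between zQ175 and WT from 230 to 98. The calls went from 3 to 1 between zQ175:CK2a'(+/-) and WT, zQ175 and zQ175:CK2a'(+/-), and CK2a'(+/-) and WT. Same-numbered mice deviated together little or not at all (24 pairs, correlations of -0.136 to 0.120), which cannot settle whether the numbers carry a pairing. With 3 CK2a'(+/-) mice and the low counts of the alpha members, modest differences could be missed.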
